A study of Mus musculus with 9 samples.

Results

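The mouse mammary gland at day 10 of lactation was compared with the gland at day 14 of pregnancy. The comparison used 4 of the 9 arrays of a study that followed the gland through puberty, pregnancy, lactation and involution. The other arrays, 3 of virgin females at 6 weeks of age and 2 of females at day 4 of involution, enter the model fit and 1 of the plots. The 2 pregnancy arrays and the 2 lactation arrays were taken by their labels, and each holds RNA of the whole inguinal gland of a wild type C57BL/6J female, so that epithelium, fat, connective tissue, vessels, blood and immune cells were measured together. Of the 12488 probe sets of the array, 12422 are not controls, and all of these entered the comparison. A total of 9783 had a mean signal above 20 in at least 1 stage and were tested, and 2639 were left out.

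In pregnancy the alveoli of the gland grow and their cells begin to make some milk proteins. Secretory activation, the start of copious milk secretion, comes around birth, as progesterone falls and prolactin acts on the alveolar cells. Lactating cells then make milk protein in the endoplasmic reticulum, lactose in the Golgi, and triglyceride that leaves the cell as a droplet wrapped in membrane. In whole tissue, fewer cells of a type, less RNA per cell and a larger share of RNA from other cells cannot be told apart.

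Signals are given as array intensities scaled to equal medians. Before log2 was taken, signals under 20, the floor, were set to 20. A log2 change is lactation minus pregnancy, and a gene with more than 1 probe set is given by its brightest. "Rose" and "fell" are used where the adjusted p of limma, over all 9783 probe sets, was below 0.05. The fit held all 9 arrays, so the puberty and involution arrays enter the estimate of the spread. Across probe sets, r was 0.975 between the pregnancy arrays, 0.947 between the lactation arrays and 0.789 to 0.829 across stages. At lactation 9.09% and 7.53% of all signal came from the 10 brightest probe sets, against 4.1% and 3.85% at pregnancy. With 2 arrays a stage, the number of arrays limits the precision, and an exact test of 2 against 2 could not give a p under 0.333.

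Of the 9783 probe sets tested, 2110 (21.6%) rose and 1925 (19.7%) fell, 41.2% together. Without pregnancy replicate 1 the calls numbered 2573, with 1346 rises and 1227 falls, and without pregnancy replicate 2 the rises numbered 1376. Rises and falls were close in number, and the median change was 0.07 on the log2 scale. Their upper ends differed in size. There were 29 rises of 16-fold or more and 4 such falls, while at 4-fold or more the numbers were 261 and 272. The floor of 20 limits how large a fall can be, and falls of 4-fold or more started from a median pregnancy signal of 245. Called probe sets at the floor on both arrays of a stage numbered 238 for lactation and 337 for pregnancy. The part of the floor in the difference was not tested. The rises of 16-fold or more covered 23 named genes and started from a median pregnancy signal of 56, reaching a median of 3880 at lactation. By gene, 1457 of 7091 (20.5%) rose and 1551 (21.9%) fell. The arrays of the stages did not overlap in 68.6% of all probe sets, called or not, with both lactation arrays above in 36.3% and below in 32.4%. In all 4 pairs of arrays, 832 probe sets (8.5%) were at least 2-fold higher at lactation and 820 (8.38%) at least 2-fold lower.

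**Figure D1:**
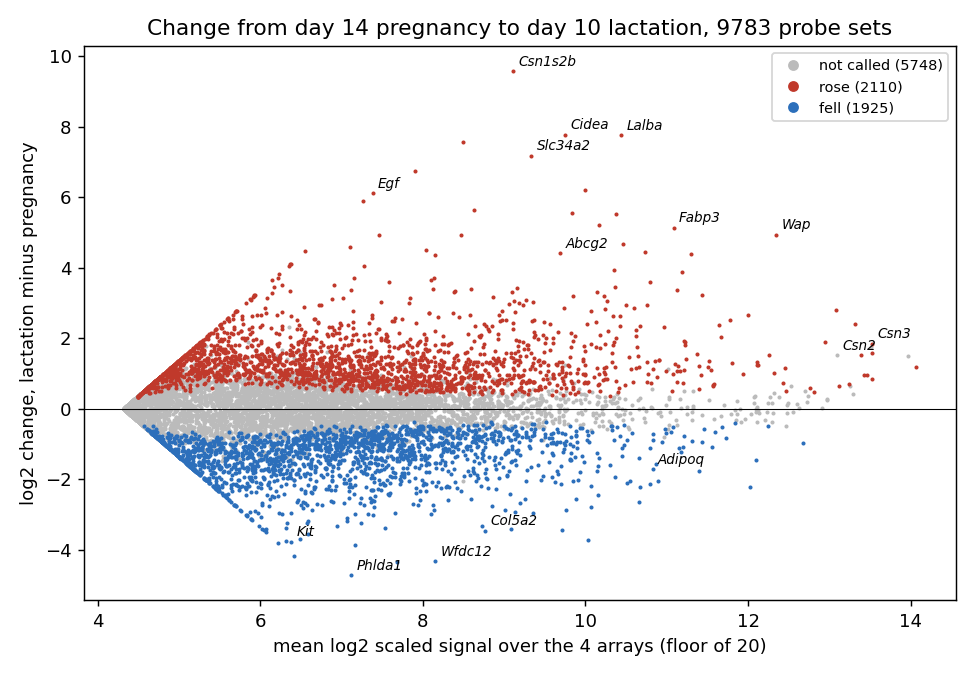
Log2 change from pregnancy to lactation (vertical) against the mean log2 scaled signal over the 4 arrays (horizontal), 1 point per tested probe set, with 2110 rises in red, 1925 falls in blue and the others in grey. The rises reach further than the falls, up to Csn1s2b. The straight edges on the left come from the floor of 20, which limits how large a fall can be.

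Milk protein genes rose by very different amounts. Of the 16 genes listed, 12 were tested, 9 rose and none fell, with a median log2 change of 3.40. Lalba encodes alpha-lactalbumin, the part of lactose synthase that is specific to milk. Its signals were 113.4 and 78.4 at pregnancy and 22880 and 18350 at lactation. The lactation arrays lay far above those of pregnancy, a log2 change of 7.76 (SE 0.48, adjusted p = 2.08e-05). Csn1s2b, which encodes a minor casein, had 19.3 and 19.2 at pregnancy, below the floor, and 18850 and 12380 at lactation, at least 764-fold higher (adjusted p = 7.58e-05). Cel, which encodes the lipase that bile salts activate in the infant gut, rose from 249.5 and 311.8 to 7718 and 6523. Its log2 change was 4.67 (SE 0.21, adjusted p = 1.09e-05). Ltf, the gene of the iron binding protein lactoferrin, rose by 5.56 (SE 0.49) and Pigr, which carries immunoglobulin A across the epithelium, by 4.40 (SE 0.37).

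The other caseins changed by less. Csn3, the kappa-casein gene, had 6667 and 5772 at pregnancy and 25140 and 19810 at lactation, a log2 change of 1.85 (SE 0.21, adjusted p = 0.000339). The mucin-like Glycam1 rose by 2.39 (SE 0.25). Csn2, the beta-casein gene, had 5331 and 4973 at pregnancy and 17610 and 12440 at lactation. Csn1s1 had 9963 and 9064, then 31030 and 23560, and Csn1s2a had 6959 and 5858, then 23830 and 19160. For these 3 caseins every lactation array lay above every pregnancy array, with log2 changes of 1.52, 1.51 and 1.74, but none passed the test (adjusted p = 0.23, 0.384 and 0.163). The SD of log2 signal over the 3 puberty arrays was 1.94, 2.69 and 1.77 for the same genes, against at most 0.35 at pregnancy and at lactation. When the fit left out the puberty arrays, all 3 passed (adjusted p = 0.00505, 0.00651 and 0.0185), and 12 of the 12 tested milk protein genes rose. Quantile normalization, which gives all arrays the same distribution, set the change of Csn1s1 to 0 and those of Csn2 and Csn1s2a to 0.58 and 0.52.

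Wap encodes whey acidic protein, a major whey protein of mouse milk. It went from 705.2 and 1249 at pregnancy to 31980 and 25790 at lactation, a log2 change of 4.94 (SE 1.36, adjusted p = 0.0191). Its puberty arrays had an SD of 2.78. The call of Wap was lost when any of the 4 arrays was left out, with adjusted p of 0.132 and 0.0841 without pregnancy replicates 1 and 2 and of 0.152 and 0.128 without lactation replicates 1 and 2. Without the puberty arrays the adjusted p was 0.000504. The 12 genes together held 1.84% of all signal on each pregnancy array and 8.66% and 7.06% on the lactation arrays. For the 8 genes plotted, both lactation arrays lay above all arrays of the other stages.

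**Figure D2:**
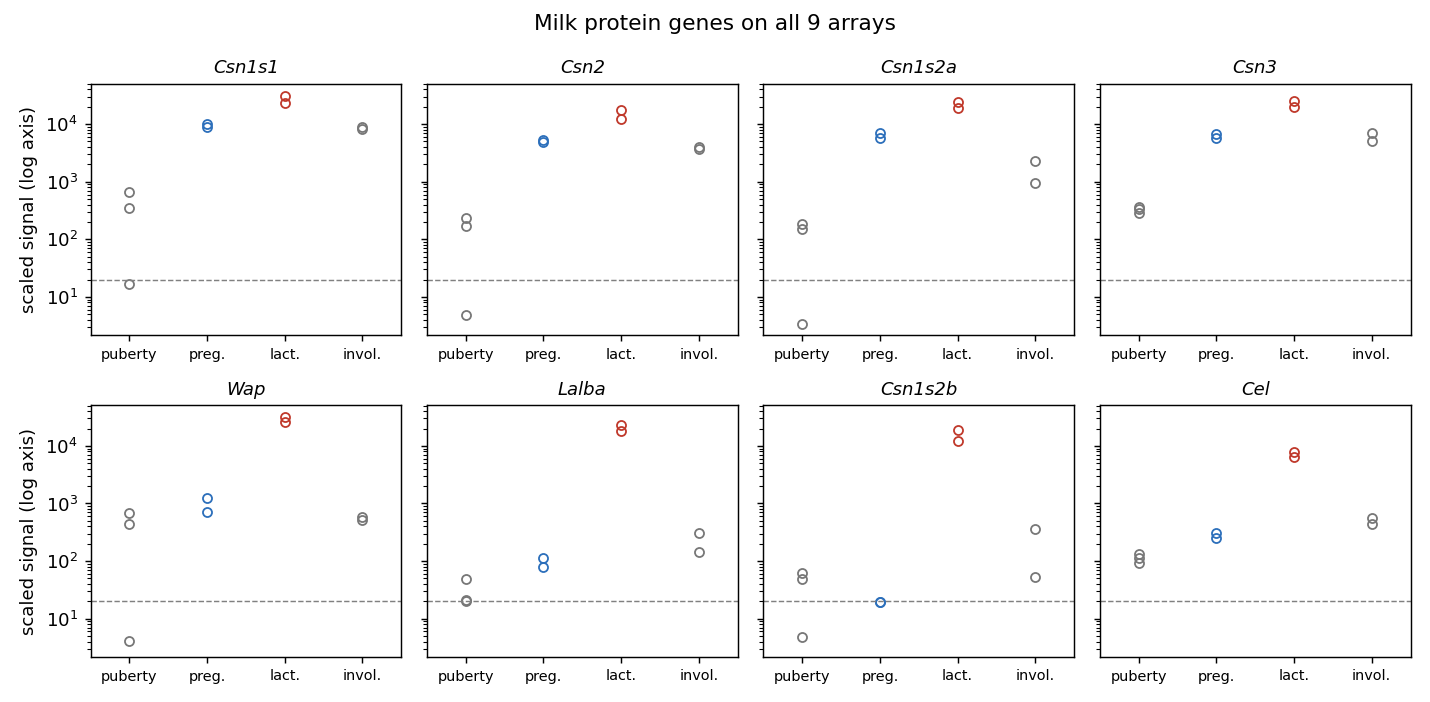
Scaled signal (log axis) of 8 milk protein genes on all 9 arrays, 1 circle per array, with pregnancy in blue, lactation in red, the other stages in grey and the floor of 20 as a dashed line. For each gene both lactation arrays lie above both pregnancy arrays, and 1 puberty array lies far below its companions for Csn1s1, Csn2, Csn1s2a and Wap.

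Promoters of milk genes are shown because prolactin acts through STAT5, a factor known to bind the palindrome TTCNNNGAA. RefSeq gave a promoter (assembly GRCm38.p6) for 5664 of the 7091 tested genes and for 10 of the 12 milk protein genes. The 250 bases before the start are printed 5′ to 3′ on the strand of the gene, with TTCNNNGAA in capitals. Csn2, Csn1s1 and Glycam1 are shown as the milk protein genes that held it, chosen after the scan, Lalba as a milk protein gene with a large rise and none, and Irf8 as the gene that fell with the smallest adjusted p among the cell type markers.
Csn2 (chr5:87699426-87699675, minus strand): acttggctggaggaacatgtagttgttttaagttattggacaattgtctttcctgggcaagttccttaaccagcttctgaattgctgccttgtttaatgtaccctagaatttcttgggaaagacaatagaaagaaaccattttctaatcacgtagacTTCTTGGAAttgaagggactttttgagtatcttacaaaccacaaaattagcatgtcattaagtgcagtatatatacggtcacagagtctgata
Csn1s1 (chr5:87665958-87666207, plus strand): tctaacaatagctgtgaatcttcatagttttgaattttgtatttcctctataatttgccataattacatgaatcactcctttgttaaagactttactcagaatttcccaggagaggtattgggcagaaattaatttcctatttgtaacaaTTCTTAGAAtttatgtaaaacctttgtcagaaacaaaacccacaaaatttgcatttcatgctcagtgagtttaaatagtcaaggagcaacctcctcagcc
Glycam1 (chr15:103565082-103565331, minus strand): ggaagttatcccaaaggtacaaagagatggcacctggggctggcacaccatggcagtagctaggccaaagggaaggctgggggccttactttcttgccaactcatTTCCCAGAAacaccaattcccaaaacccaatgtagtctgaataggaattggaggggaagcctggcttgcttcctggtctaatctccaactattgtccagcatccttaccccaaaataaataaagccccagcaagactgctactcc
Lalba (chr15:98482684-98482933, minus strand): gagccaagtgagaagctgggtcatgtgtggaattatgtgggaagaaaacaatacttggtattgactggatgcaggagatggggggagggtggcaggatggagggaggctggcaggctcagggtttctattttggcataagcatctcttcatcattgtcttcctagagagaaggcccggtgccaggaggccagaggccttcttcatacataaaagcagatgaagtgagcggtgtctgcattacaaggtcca
Irf8 (chr8:120736108-120736357, plus strand): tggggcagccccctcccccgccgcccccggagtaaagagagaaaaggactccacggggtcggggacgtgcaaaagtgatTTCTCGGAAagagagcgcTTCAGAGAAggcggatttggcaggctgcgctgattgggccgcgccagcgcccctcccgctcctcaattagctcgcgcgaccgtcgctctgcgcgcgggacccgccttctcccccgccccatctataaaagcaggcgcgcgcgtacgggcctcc
TTCNNNGAA, which reads the same on both strands, stood in this window in 7.18% of 27025 promoters and in 6.02% of those of tested genes. It stood in 17 of 136 promoters (12.5%) of genes that rose 4-fold or more and in 10 of 174 (5.75%) of genes that fell 4-fold or more. Of the 10 milk protein promoters 3 held it, and those of Lalba, Ltf, Wap, Cel, Pigr, Csn1s2a and Wfdc18 did not. The E-box CANNTG, also read on both strands, stood in 57.5% of the tested genes' promoters, in 55.9% for the rises and in 55.7% for the falls. Irf8 held TTCNNNGAA at 2 places, Lalba held CANNTG at 3, and a match of letters does not show binding.

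Genes of the milk fat globule, the droplet of triglyceride in its coat of membrane, rose almost as a whole. Of 12 tested, 10 rose and 1 fell, with a median of 3.05. Cidea, which encodes a lipid droplet protein, had the largest rise among genes above the floor at both stages. Its signals were 68.7 and 49.1 at pregnancy and 14890 and 10790 at lactation, a log2 change of 7.77 (SE 0.47, adjusted p = 2.08e-05). Fabp3, a fatty acid carrier, rose by 5.13 (SE 0.30), from 355.4 and 378.5 to 14680 and 11280. Xdh, whose product xanthine oxidoreductase lines the globule membrane with butyrophilin, rose by 3.30 (SE 0.20), from 321.1 and 403.8 to 3800 and 3316. Btn1a1, the butyrophilin gene, rose by 3.36 (SE 0.42) and Muc1, a membrane mucin, by 3.45 (SE 0.22). Plin2, the coat protein of small droplets, was already at 2901 and 2887 and rose to 8574 and 8023. Cidec, a droplet protein of fat cells, went the other way, from 575.7 and 349.9 to 44.6 and 72.9, and fell by 2.98 on the log2 scale (SE 0.33).

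Fatty acid synthesis rose with it. Of 20 genes tested, 16 rose and none fell, with a median of 1.42. Acly, which makes cytosolic acetyl-CoA from citrate, had 1330 and 1478 at pregnancy and 8378 and 6260 at lactation, a log2 change of 2.37 (SE 0.24, adjusted p = 0.000173). The citrate carrier gene Slc25a1 rose by 2.34 (SE 0.28), Fasn, the fatty acid synthase, by 1.33 (SE 0.19), and Elovl5, an elongase, by 3.60 (SE 0.17). Scd1, a desaturase gene, went from 7394 and 5419 to 16410 and 20480, but its call was lost under quantile normalization (adjusted p = 0.183). Triglyceride assembly was mixed, while over all genes 20.5% rose and 21.9% fell. Of 15 genes, 5 rose, among them Agpat1 by 2.25 (SE 0.27) and the phosphatidate phosphatase gene Lpin1 by 2.67 (SE 0.26), and 3 fell (1 without pregnancy replicate 1 or lactation replicate 1). Of the falls, Mgll and Lipe encode enzymes that break triglyceride down. Mgll fell by 1.54 on its brightest probe set and rose by 1.72 on the other (adjusted p = 0.000308), and Lipe lost its call without pregnancy replicate 1 or lactation replicate 1 (adjusted p = 0.0939 and 0.118). Dgat1 had 308.1 and 257.0 at pregnancy and 257.8 and 230.0 at lactation, and its arrays overlapped.

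Cholesterol synthesis rose in 10 of 19 genes tested, with a median of 0.91, and fell in none. Fdps, which makes farnesyl diphosphate, rose by 2.46 (SE 0.28), from 336.9 and 279.5 to 1559 and 1816, and Sqle, which makes squalene epoxide, by 2.11 (SE 0.25). The count was 6 without pregnancy replicate 2 and 7 without lactation replicate 2. Srebf1, which encodes the sterol and lipid regulator SREBP1, had 1154 and 1303 at pregnancy and 1197 and 866.1 at lactation (log2 change -0.27, adjusted p = 0.328). Fatty acid oxidation in mitochondria moved against synthesis. Of 17 genes, 11 fell and 1 rose, with a median of -0.90. Cpt1a, the carnitine transferase that admits fatty acids to mitochondria, had 439.9 and 357.2 at pregnancy and 52.2 and 69.5 at lactation, and fell by 2.72 on the log2 scale (SE 0.23, adjusted p = 8.18e-05). Decr1 fell by 2.66 and Acadm, a dehydrogenase of medium chains, by 1.53. Acads rose on its brightest probe set (1.25) and fell on another (log2 change -0.70, adjusted p = 0.00974), and its rise was lost when any of the 4 arrays was left out (adjusted p = 0.0538 to 0.105).

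Sugar metabolism rose in part. Of 14 genes for lactose and nucleotide sugars, 8 rose and 1 fell, with a median of 0.69. Slc2a1, the glucose transporter GLUT1, had 32.2 and 49.9 at pregnancy and 375.6 and 325.4 at lactation, a log2 change of 3.13 (SE 0.44, adjusted p = 0.000825). B4galt1, the galactosyltransferase that joins alpha-lactalbumin to make lactose, was at 727.7 and 718.5 and rose to 4368 and 3099 (log2 change 2.35, SE 0.18). The fall was Pgm1, a phosphoglucomutase gene (log2 change -0.92). Its call was lost when any of the 4 arrays was left out, with adjusted p of 0.0743 and 0.055 without pregnancy replicates 1 and 2 and of 0.0782 and 0.0743 without lactation replicates 1 and 2. In glycolysis 7 of 17 rose and 1 fell. Aldoc, an aldolase, rose by 2.84 (SE 0.32), Pfkl, a phosphofructokinase, by 1.62 (SE 0.18) and Pkm, a pyruvate kinase, by 1.39 (SE 0.25). For the supply of NADPH, Me1, the malic enzyme, rose by 1.49 (SE 0.24), while Idh1 and Idh2, the isocitrate dehydrogenases that make NADPH, fell by 1.43 and 1.39 on the log2 scale.

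Genes of protein export rose more often than they fell. Of 39 genes of the endoplasmic reticulum, 25 rose and none fell, with a median of 0.90. From the 4 arrays alone 22 rose and 1 fell. Qsox1, which forms disulfide bonds in secreted proteins, stood out from the group. It had 98.2 and 143.2 at pregnancy and 10430 and 7462 at lactation, a log2 change of 6.22 (SE 0.45, adjusted p = 3.68e-05), and its other probe set rose by 7.57. P4hb, which encodes a protein disulfide isomerase, rose by 2.77 (SE 0.47) and Srpr, the receptor of the signal recognition particle, by 2.22 (SE 0.16). Xbp1, a transcription factor of the secretory cell, rose from 743.7 and 1040 to 1960 and 2019 (log2 change 1.18, adjusted p = 0.00382). Among 42 genes of vesicle coats, Rabs and SNAREs, 21 rose and 3 fell, with a median of 0.52, and the falls numbered 1 with either pregnancy array left out. Rab18, a GTPase found on lipid droplets, rose by 2.62 (SE 0.16) and Rab1a, which acts between the reticulum and the Golgi, by 1.84 (SE 0.20). The rises of the vesicle list numbered 16 without the puberty arrays and 19 from the 4 arrays alone.

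**Figure D3:**
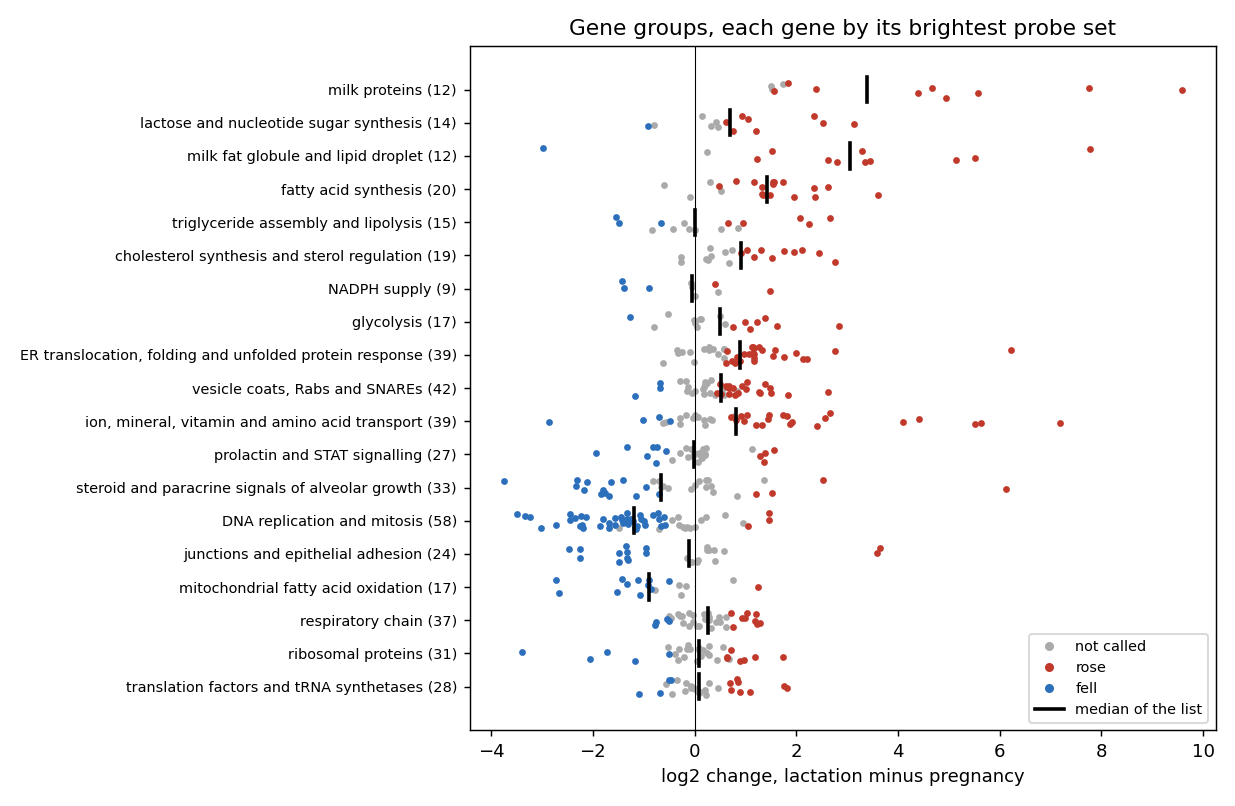
Log2 change, lactation minus pregnancy, of each tested gene in 19 functional groups, 1 point per gene by its brightest probe set and the number of genes in brackets, with rises in red, falls in blue, uncalled genes in grey and the group's median as a black bar. Milk proteins and the milk fat globule have medians above 3, and DNA replication and mitosis and fatty acid oxidation have medians of -1.19 and -0.90.

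Transporters of minerals, vitamins and amino acids held some of the steepest rises. Of 39 genes, 21 rose and 4 fell (1 without pregnancy replicate 1 and 2 without pregnancy replicate 2), with a median of 0.82. Slc34a2, a phosphate carrier, had 47.2 and 60.8 at pregnancy and 8612 and 7000 at lactation, a log2 change of 7.18 (SE 0.21, adjusted p = 8.94e-07). Slc39a8, a carrier of zinc and other divalent metals, rose by 5.64 (SE 0.27), from 55.9 and 56.1 to 2902 and 2672. Folr1, a folate receptor, rose by 5.51 (SE 0.31), and Abcg2, which exports riboflavin and drugs into milk, by 4.41 (SE 0.21). Atp2b2, the calcium pump of the apical membrane, was at 4.90 and 10.9 at pregnancy, below the floor, and at 366.0 and 320.5 at lactation. Its rise from the floor corresponds to a log2 change of at least 4.10 (adjusted p = 1.79e-05). Slc7a5, which carries large neutral amino acids, rose by 2.40 (SE 0.24), while Slc1a5, a carrier of neutral amino acids, fell by 2.86 on the log2 scale (SE 0.48), from 334.4 and 214.5 to 14.1 and 68.2. Slc12a2, the chloride carrier NKCC1, had overlapping arrays, at 442.3 and 500.4, then 420.8 and 499.3.

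Growth signals of the pregnant gland fell more often than they rose. Of 33 steroid and paracrine genes, 14 fell and 4 rose, with a median of -0.66. The falls numbered 9 without lactation replicate 1. Egf encodes epidermal growth factor, which is secreted into milk. It rose from below the floor, at 6.30 and 3.51, to 1564 and 1240, at least 69.6-fold higher (adjusted p = 1.4e-05). Tnfsf11, which encodes RANK ligand, a signal for alveolar growth, had 70.5 and 66.0 at pregnancy and 11.4 and 6.68 at lactation, below the floor. Wnt4, which acts beside it in side branching, also fell to below the floor, from 60.4 and 47.1 to 10.3 and 13.4, and lost its call with a floor of 50 (adjusted p = 0.273). Ccnd1, the cyclin of the G1 phase, fell by 2.33 on the log2 scale (SE 0.22), from 871.0 and 729.0 to 127.7 and 197.5. Notch1 fell by 3.75 (SE 0.27) on its brightest probe set, whereas the other had a log2 change of -0.70 (adjusted p = 0.159). Kit, a receptor tyrosine kinase of luminal progenitors, is named for the size of its change and fell by 3.77 (SE 0.32), from 251.5 and 378.2 to 22.2 and 23.0.

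Genes of prolactin and STAT signalling had a median change of -0.01. Their calls were not far from the shares over all genes, of which 20.5% rose and 21.9% fell. Of 27 tested, 4 rose and 7 fell, and the falls numbered 2 or 3 when any of the 4 arrays was left out (2 without pregnancy replicate 1 or lactation replicate 1, 3 without pregnancy replicate 2 or lactation replicate 2). Elf5, a transcription factor of the alveolar lineage, had 1094 and 1216 at pregnancy and 3561 and 2456 at lactation (log2 change 1.36, SE 0.23, adjusted p = 0.00211). Akt1, a kinase downstream of prolactin, rose by 1.39 (SE 0.19). Ghr, the growth hormone receptor gene, fell by 1.93 (SE 0.16), from 433.5 and 340.2 to 92.8 and 109.2. Stat5a had 789.0 and 863.5 at pregnancy and 856.6 and 771.7 at lactation, and Cish, an inhibitor that STAT5 induces, had 138.5 and 177.0, then 124.4 and 194.9. The arrays of both genes overlapped, with adjusted p of 0.95 and 1.

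DNA replication and mitosis fell as a group. Of 58 genes tested, 41 fell and 3 rose, with a median of -1.19, and the falls numbered 27 without pregnancy replicate 1. Stmn1, which binds tubulin in dividing cells, had 1437 and 1258 at pregnancy and 107.1 and 167.4 at lactation, and fell by 3.33 on the log2 scale (SE 0.34, adjusted p = 0.000193). Rrm1, a subunit of ribonucleotide reductase, went from 265.8 and 191.5 to 9.97 and 11.7, below the floor, at least 11.3-fold lower. Cdk1, the kinase of mitosis, fell by 2.34 (SE 0.41), Pcna, the sliding clamp of replication, by 1.40 (SE 0.18), and Ccnb2, a cyclin of mitosis, by 1.87 (SE 0.33). Top2a, a topoisomerase, fell from 140.9 and 65.2 to 13.9 and 6.47 and lost its call with a floor of 50 (adjusted p = 0.0855). The 3 that rose were Bub1, Plk1 and Cdc25a, which act in mitosis, and Bub1 and Plk1 each fell on another probe set (log2 change -0.77 and -1.68). Bub1 was below the floor at pregnancy, at 12.5 and 2.27, and lost its call with a floor of 50 (log2 change 0.23, adjusted p = 0.273).

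**Figure D4:**
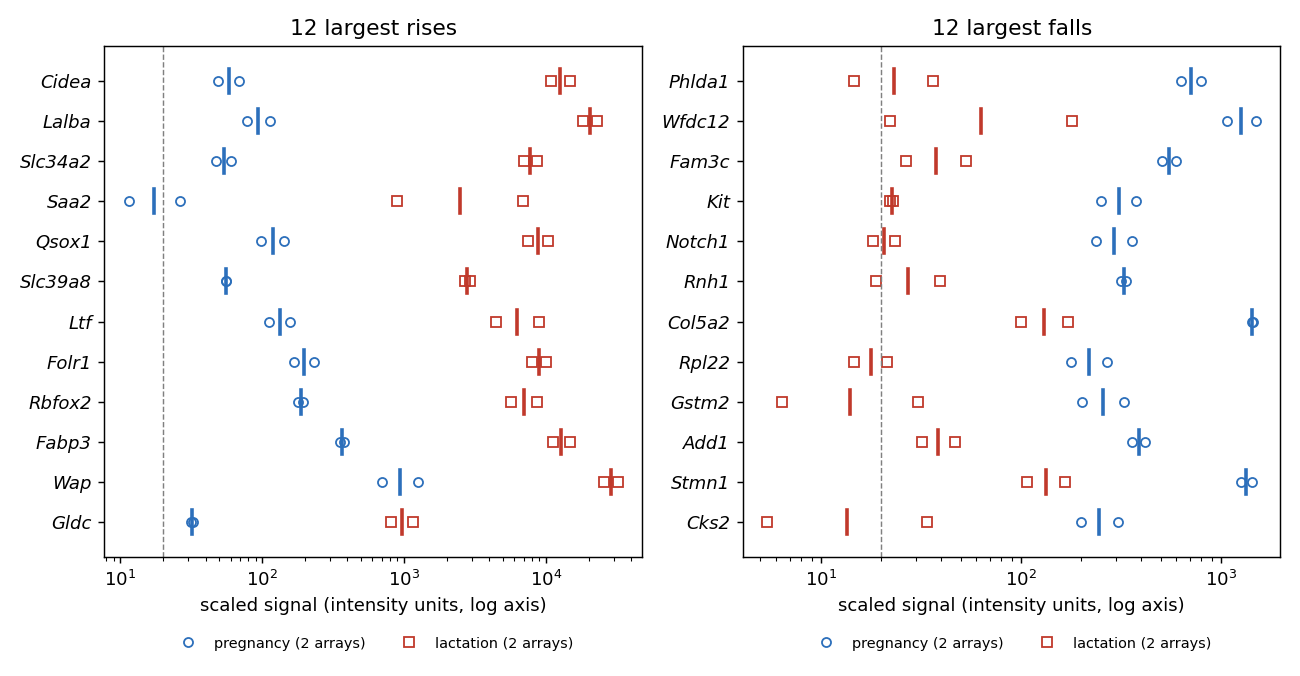
Scaled signal (log axis) on the 2 pregnancy arrays (blue circles) and 2 lactation arrays (red squares) for the 12 genes with the largest rises (left) and the 12 with the largest falls (right) among called genes that were not below the floor on both arrays of a stage, with a bar at the geometric mean of each stage and the floor of 20 as a dashed line. The stages do not overlap for any of the genes shown, and Saa2 and Wfdc12 have the widest gaps between the lactation arrays.

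Further genes are named for the size of their change alone. Gldc, a glycine decarboxylase, rose by 4.92 (SE 0.28), from 31.7 and 32.4 to 813.2 and 1155. Saa2, an acute phase protein gene, had 11.5 and 26.4 at pregnancy and 898.2 and 6856 at lactation, on a probe set shared by related genes. Rbfox2, a splicing factor gene, rose by 5.22 on its brightest probe set, and the other had 0.28 (adjusted p = 0.25). The largest fall was Phlda1, from 636.0 and 793.8 to 14.7 and 36.5 (log2 change -4.72, SE 0.51, adjusted p = 0.000253). Wfdc12 fell by 4.32, from 1502 and 1073 to 22.2 and 180.7, and lost its call without pregnancy replicate 1 (adjusted p = 0.0766), pregnancy replicate 2 (0.0547) or lactation replicate 1 (0.0979), while its other probe set had a change of 0.01. Fam3c, a secreted factor gene, fell by 3.87 (SE 0.31) and on both its other probe sets. Rnh1 and the ribosomal protein gene Rpl22 fell on the brightest probe set (by 3.54 and 3.40) and rose on the other (by 1.09 and 1.24). Gstm2, Add1 and Cks2, the last of the mitosis list, fell by 3.24 to 3.38. The signals of Saa2 at pregnancy and of Phlda1, Notch1, Rnh1, Rpl22, Gstm2 and Cks2 at lactation were below the floor on 1 array. Cyp1b1, Reln and Rcn1 fell to below the floor, at least 13.9-fold, 10.9-fold and 10.6-fold lower, though the other probe set of Reln had a log2 change of 1.07 (adjusted p = 0.0941). Ceacam10 and Pip, a secreted protein gene, rose from below the floor, at least 59-fold and 22.1-fold higher. Of the 893 genes with several probe sets and at least 1 call, 83 had calls in both directions.

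Junction genes fell more often than they rose, whereas over all genes 20.5% rose and 21.9% fell. Of 24 tested, 2 rose and 11 fell, with a median of -0.11. Gjb1, the connexin 32 gene, rose from 16.2 and 10.6, below the floor, to 274.5 and 228.0 (log2 change of at least 3.65 over the floor, adjusted p = 3.41e-05). Cldn8, a claudin of tight junctions, rose by 3.59 (SE 0.25), from 53.1 and 57.6 to 758.6 and 584.2. Gja1, the connexin 43 gene, fell by 2.24 (SE 0.23), from 517.0 and 533.8 to 98.1 and 125.7. Gjb2, the connexin 26 gene, fell from 1064 and 1414 to 603.4 and 400.2 and lost its call without pregnancy replicate 2 or lactation replicate 2 (adjusted p = 0.0647 and 0.0608). Dsp, a desmosome plaque gene, fell by 2.26 and Tjp1, the gene of the scaffold ZO-1, by 1.33. The falls numbered 7 without lactation replicate 2, the rises numbered 4 without lactation replicate 1, and the changes of Ocln and Cldn7, at 0.40 and 0.25, did not pass the test.

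Related genes were compared by family. Of 31 such genes tested, 13 rose, 8 fell (4 without pregnancy replicate 2 or lactation replicate 2) and 10 did not pass the test. Each pair is given as separate changes, since probe levels of different genes cannot be compared and the difference was not tested. Cidea rose by 7.77, and Cidec fell by 2.98 on the log2 scale. Fabp3 rose by 5.13, and Fabp4, the form of fat cells, fell by 0.60, a call lost without the puberty arrays (adjusted p = 0.0681) and without pregnancy replicate 1 (0.117), pregnancy replicate 2 (0.0675) or lactation replicate 2 (0.0526). Slc2a1 rose by 3.13, and Slc2a4, the insulin-responsive transporter of fat and muscle, had a change of -0.02 (adjusted p = 0.97). Aldoc rose by 2.84, and Aldoa had -0.53 (adjusted p = 0.138). Pfkl rose by 1.62, and Pfkm had 0.60 without passing the test. Ldha rose by 1.09, and Ldhb had 0.12, with overlapping arrays. Gjb1 rose and Gjb2 fell, as given above. Both desaturase genes rose, Scd1 by 1.53 and Scd2 by 1.57. Of the claudin genes, Cldn3 fell by 1.35 and Cldn5 by 1.30 on the log2 scale. Cldn8 rose and Cldn7 did not pass the test, as given above. The call of Cldn3 was lost when any of the 4 arrays was left out (adjusted p = 0.0688 to 0.115). Of the hexokinases, Hk2 rose by 0.75, a call lost when any of the 4 arrays was left out (adjusted p = 0.0984 to 0.157), and Hk1 had -0.80 (adjusted p = 0.111). Of the insulin-like growth factors, Igf2 fell by 1.16, a call lost without pregnancy replicate 2 (adjusted p = 0.132), lactation replicate 1 (0.117) or lactation replicate 2 (0.0982), and Igf1 had 0.83 (adjusted p = 0.0702). Neither STAT5 gene passed the test, with changes of -0.02 for Stat5a and 1.13 for Stat5b (adjusted p = 0.95 and 0.0608). Stat5b, Hk1 and Igf1 passed it under some alternatives and not under others. Without the involution arrays the adjusted p was 0.0205 for Stat5b and 0.0365 for Hk1. From the 4 arrays alone it was 0.0497 for Stat5b, and with a filter of 100 it was 0.047 for Igf1.

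Markers of connective tissue and fat fell. Of 24 genes of stroma and matrix, 21 fell and none rose, with a median of -1.45, and their summed signal was between 25380 and 28980 at pregnancy and between 7106 and 8987 at lactation. Col3a1, a fibrillar collagen gene, had 2444 and 2279 at pregnancy and 298.0 and 344.9 at lactation, and fell by 2.88 on the log2 scale (SE 0.24, adjusted p = 6.77e-05). Col5a2 fell by 3.46 (SE 0.25). Col1a2 fell by 2.79 on its brightest probe set and rose by 1.01 on the other. From the 4 arrays alone the falls of this list numbered 17. Among white adipocyte markers 7 of 12 fell and 1 rose, with a summed signal of between 9899 and 13980 at pregnancy and between 7097 and 7165 at lactation. Adipoq, the adiponectin gene, fell from 3773 and 2860 to 956.4 and 1049. Pparg, the master factor of fat cells, fell from 108.1 and 103.6 to 5.09 and 4.13, below the floor, whereas Lep, the leptin gene, had overlapping arrays. The rise was Lpl, the lipoprotein lipase gene, which fat cells and secretory cells both express (log2 change 0.96, adjusted p = 0.0041), and its call was lost under quantile normalization (adjusted p = 0.0915).

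**Figure D5:**
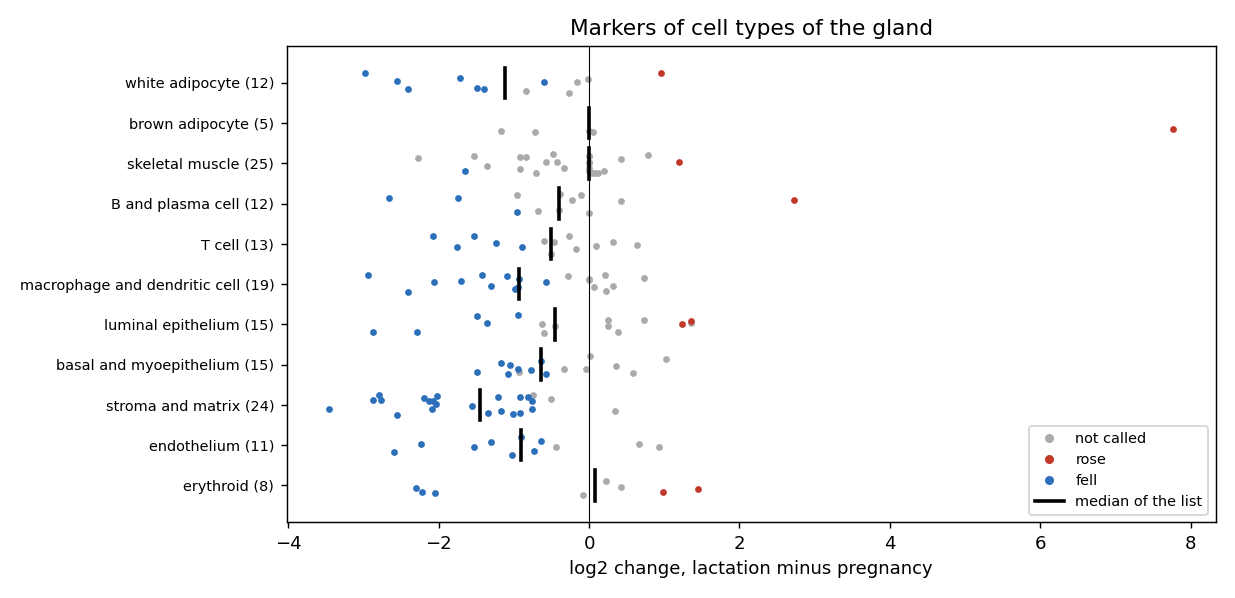
Log2 change, lactation minus pregnancy, of markers of 11 cell types, 1 point per tested gene by its brightest probe set and the number of genes in brackets, with rises in red, falls in blue, uncalled genes in grey and the list's median as a black bar. In the list of stroma and matrix 21 of 24 genes fell, and the lone point at 7.77 among brown adipocyte markers is Cidea.

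Markers of macrophages and vessels fell or did not pass the test, and those of B cells and red cells held calls in both directions. Among all genes 20.5% rose and 21.9% fell. Of 19 macrophage and dendritic cell markers, 11 fell and none rose, with a median of -0.94 and a summed signal of 10570 to 12490 at pregnancy and 5600 to 7084 at lactation. Irf8, a transcription factor of these cells, had 157.5 and 167.6, then 5.19 and 22.5 (log2 change -2.94, SE 0.17, adjusted p = 1.79e-05). C1qb, a complement gene of macrophages, fell by 1.70 (SE 0.12). Csf1r fell by 1.31 on its brightest probe set and rose by 1.56 on the other. Of 13 T cell markers 5 fell, a count of 3 without pregnancy replicate 1, and of 11 endothelial markers 8 fell, among them Vwf, the von Willebrand factor gene, from 119.2 and 123.0 to 9.35 and 11.6. Of 12 B and plasma cell markers 1 rose and 3 fell (6 without lactation replicate 2, 2 when any other of the 4 arrays was left out), with a median of -0.40 and 8 that did not pass the test. Igha, the immunoglobulin A heavy chain gene of plasma cells, rose by 2.72 (SE 0.44), from 98.9 and 168.4 to 942.1 and 770.4, while Cd79b of B cells fell by 2.66 (SE 0.47). Of 8 erythroid markers 3 fell and 2 rose, with a median of 0.07. The globin gene Hba-a1 fell from 9982 and 8145 to 1736 and 2149, Hbb-b2, another globin gene, by 2.05 and Alas2, which acts in heme synthesis, by 2.30 on the log2 scale. The rises were Ank1, a membrane skeleton gene, by 1.45, a call lost when any of the 4 arrays was left out (adjusted p = 0.0508 to 0.105), and Rhag, from 19.7 and 24.6 to 46.4 and 41.1, a call lost with a floor of 50. Skeletal muscle markers had a median change of 0, and 6 of 25 were at the floor on all 4 arrays.

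Calls of epithelial markers are set beside the 20.5% of all genes that rose and the 21.9% that fell. Of 15 luminal markers 2 rose (Elf5 and Cd24a) and 5 fell, 2 when any of the 4 arrays was left out, and the summed signal was 9256 to 10140 at pregnancy and 11290 to 13430 at lactation. Cd24a rose from 2907 and 2845 to 7411 and 6164, a call lost under quantile normalization (adjusted p = 0.0671). Krt18, a keratin of luminal cells, had 951.0 and 1181 at pregnancy and 220.4 and 213.4 at lactation, and fell by 2.29 on the log2 scale (SE 0.29, adjusted p = 0.000537). Krt19 fell by 2.88 (SE 0.42). Of 15 basal and myoepithelial markers, 8 fell and none rose, and the falls numbered 4, 3 and 4 without pregnancy replicate 1, pregnancy replicate 2 and lactation replicate 1. Tagln, a protein of contractile cells, fell by 1.05 (SE 0.13), from 1222 and 1430 to 664.8 and 616.6. Of 5 brown adipocyte markers tested, Cidea alone rose and none fell. At an unadjusted p under 0.05 in limma, the lists given above with no call in 1 direction held 1 fall each in fatty acid synthesis and in the endoplasmic reticulum, 2 rises in the basal list, 1 rise each in the T cell and endothelial lists, and 0 in the lists of milk proteins, cholesterol synthesis, stroma, macrophages and brown adipocytes. These counts take each gene by its brightest probe set, and Col1a2 of the stroma list and Csf1r of the macrophage list rose on their other probe set. The part of these cell types in the changes of the other gene groups was not tested.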

How the data were processed

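RNA of whole inguinal mammary glands was hybridized to Affymetrix MG-U74Av2 arrays, 1 gland RNA per array. Per the submitters' processing notes the authors computed the deposited signal intensity per probe set with MAS5, whose version is not given in the sources used here. The values are linear, with a trimmed mean of 125.1 on all 9 arrays, and the filter and per-gene normalization of the methods are not in them. The labels and the methods give different amounts of cRNA per array. From these, 66 control probe sets were removed, the medians of the arrays were made equal (factors 0.948 to 1.06), a floor of 20 was set and log2 was taken. Those with a stage mean of the scaled signal above 20 for 1 stage or more were tested with limma 3.58.1 in R 4.3.3 (lmFit, eBayes with a trend, all 9 arrays, contrast of lactation against pregnancy), with Benjamini-Hochberg adjustment over 9783 probe sets and a threshold of 0.05. Values were read with the package data.table (version 1.17.8) and figures drawn with matplotlib 3.10.9. On simulated data of 9783 probe sets, changes of 1 and 2 on the log2 scale were given to 100 probe sets each. Of these 30% and 75% were recovered, with 5 false calls among 110. All other probe sets were unchanged there, whereas 41.2% were called in the data. The adjusted p depends on that share, so these rates do not apply to this comparison. Names came from the platform's annotation, which gives 1 symbol for 10833 probe sets, several for 396 and no entry for 1193, and Entrez IDs were used to bring the symbols up to RefSeq (GRCm38.p6). A gene at the floor on both arrays of a stage is given only a bound, against the floor of 20.

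The members and gene lists were chosen with earlier results of these data known. Named genes are the 12 largest rises and falls with no stage at the floor on both arrays, the 4 largest from and to the floor, up to 5 called members per list by adjusted p with up to 3 that went against it, related genes of selected families, and genes fixed by name, some of which are not reported here. Csn1s1, Csn1s2a, Glycam1, Muc1, Ccnb2, Cdk1, P4hb, Slc25a1, Slc7a5, Tjp1 and Rpl41 were added after their values were seen. Where RefSeq's promoter table has several promoters of a gene, the first was used. Each array is a separate female. No depth exists for arrays, so their number limits the precision. Alternatives were other scalings, floors, filters and fits, the replicate number as a block, and leaving out each array, and, chosen after seeing the data, leaving out the puberty or the involution arrays. The replicate numbers of the labels were not used as pairs in the main fit.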

Additional observations from a re-analysis of the deposited data

How the results depend on the processing

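The count of 4035 calls ranged from 2942 (a floor of 50) to 4257 (an added constant of 16) under other scalings, floors, filters and eBayes settings, with 3328 from the 4 arrays alone. Leaving out 1 array gave 2573 to 4088 calls (1346 to 2257 rises and 1227 to 1972 falls), the lowest without pregnancy replicate 1. Without the puberty arrays there were 3371, and without the involution arrays 4136. The replicate number as a block gave 3600 (1868 rises, 1732 falls). With the block, 3524 of the 4035 were called again. Deviations from the stage mean correlated at -0.056 for pregnancy 1 and lactation 1, and between -0.153 and 0.049 over arrays with the same number. This cannot exclude a pairing that moved part of the genes. On the deposited scale, which moves the median change by -0.11, 44.7% of calls were rises, against 52.3% with equal medians. Among these settings, calls turned sign under quantile normalization alone, for 9 probe sets, with Eef1a1 (0.83) at -0.39 and Rpl41 (1.19) at -0.18 there. Of 205 named genes with a call, 153 were called under every alternative that tested them, and 52 lost the call under at least 1.

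Among uncalled genes near 0, signs turned for 6. Scaling to the 75th percentile gave Cish 0.02, Slc2a4 0 and Stat5a 0, and quantile normalization gave Cish 0. Leaving out 1 array gave -0.33 to 0.32 for Cish, -0.05 to 0.29 for Ldhb, -0.57 to 0.02 for Lep, -0.16 to 0.09 for Slc12a2, -0.17 to 0.13 for Slc2a4 and -0.10 to 0.05 for Stat5a. Where 1 pregnancy or lactation array was left, it was assumed to vary like the other stages. The cause was not tested. Signal near the floor limits low genes, since 13.2% to 15.3% of probe sets per pregnancy or lactation array lay there.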

Other observations

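Protein synthesis and respiration genes held calls in both directions, while over all genes 20.5% rose and 21.9% fell. Of 31 ribosomal protein genes, 7 rose and 5 fell, with a median of 0.10, while under quantile normalization 2 rose and 13 fell, with a median of -0.40. Rpl22 had the largest fall (log2 change -3.40, with the other probe set at 1.24), and Rps19 fell from 3570 and 4209 to 986.5 and 877.5 (log2 change -2.06, adjusted p = 0.00189), while Rpl41 rose from 12610 and 10200 to 28310 and 23660 (1.19, adjusted p = 0.00464), a call lost without lactation replicate 1 (adjusted p = 0.0576) and turned to -0.18 under quantile normalization. The rises numbered 3 without pregnancy replicate 2 or lactation replicate 1, 4 from the 4 arrays alone and 2 with no filter. Of 37 genes of the respiratory chain, 9 rose and 4 fell. Uqcrq, a subunit of complex III, rose by 1.19 and Ndufa5, of complex I, fell by 0.78 on the log2 scale, and the call of Ndufa5 was lost without pregnancy replicate 1 (adjusted p = 0.0592). Without that array the chain had 9 rises and no call of a fall by limma, and without either lactation array the falls numbered 2. Of 28 translation factors and amino acid enzymes, 8 rose and 4 fell, and the rises numbered 1 without lactation replicate 1, 3 without pregnancy replicate 1 and 5 with either of the other arrays left out, while the falls numbered 1 without pregnancy replicate 1 and 2 without pregnancy replicate 2 or lactation replicate 1. Asns, which makes asparagine, rose from 658.5 and 454.5 to 1698 and 2040 (log2 change 1.77, adjusted p = 0.000644).

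The control ratios of signal from the 3′ to the 5′ end, a measure of RNA integrity, were close for Actb, at 0.93 and 0.76 on the log2 scale at pregnancy and 0.89 and 0.80 at lactation, and higher at lactation for Gapdh, at 0.20 and 0.22, then 0.51 and 0.36. On the 2 involution arrays, which enter the estimate of the spread, the ratios were higher, at 1.59 and 2.05 for Actb and 2.12 and 2.23 for Gapdh. The part of these ratios in the changes and in the spread was not tested.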
